A study of Mus musculus with 2 samples.

Results

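The genes described here are 171 long intergenic noncoding RNA (lincRNA) genes of the mouse hippocampus, out of 55536 mouse genes measured. All carry a provisional symbol in the annotation used, though some, such as Norad and Chaserr below, also have an established name. They were chosen by their level: a gene entered when at least 1 of its transcripts was classed as lincRNA, its mean over both libraries was at least 2 TPM (a relative abundance corrected for transcript length), and its symbol was Gm followed by digits or ended in Rik, with 1700020I14Rik left out. Of the 171, 93 had a Gm symbol and 78 a Rik symbol. Before the level was applied, 6058 genes had a lincRNA transcript and 5458 of those had such a symbol, and 56 lincRNA genes with other symbols also reached 2 TPM. Because the mean TPM chose the members, their levels are a description and were not tested. Just inside the threshold were 2210008F06Rik (2.03 and 1.98 TPM in replicates 1 and 2), Gm42031 (1.61 and 2.40) and Gm44698 (2.22 and 1.79). Just outside it were Gm49602 (2.17 and 1.82), Gm45733 (1.36 and 2.62) and Gm42518 (2.20 and 1.77).

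The samples were hippocampal total RNA of 2 males of the strain B6CASTF1/J, a mouse cross of C57BL/6J with CAST/EiJ, at 36 days of age, and the labels give no treatment. They form 1 group with biological replicates 1 and 2, so no conditions were compared, and both carry the same donor identifier but different biosamples. The tissue is labelled as a layer of the hippocampus, and the dissection is not described. The libraries held 28786216 and 29755033 expected counts. Markers matched the label in both: Camk2a of excitatory neurons stood at 1347 and 1414 TPM, and Prox1 of dentate granule cells at 32.9 and 45.1 TPM. All 4 choroid plexus markers were higher in replicate 2 (Ttr stood at 3.62 and 179 TPM). In bulk tissue, fewer cells of a type and less RNA per cell cannot be told apart.

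LincRNAs are transcribed by RNA polymerase II from loci outside protein-coding genes, and are usually spliced and often polyadenylated. Some act where they are made on a neighbouring gene, some bind proteins or microRNAs elsewhere in the cell, and others serve as the primary transcript of a microRNA. Brain expresses more of them than most tissues. The symbols Gm and Rik are catalogue names given to gene models and cDNA clones before a function is known.

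Most members were low, and a few held nearly all of the signal. By mean TPM 53 members lay from 2 to 3, 41 from 3 to 5, 43 from 5 to 10, 18 from 10 to 20, 9 from 20 to 50, 2 from 50 to 100 and 5 above 100. The median member stood at 4.45 TPM and 132 counts in replicate 1, and at 4.24 TPM and 135 counts in replicate 2. Both libraries reached 2 TPM for 149 members, while 6 fell under it in replicate 1 alone and 16 in replicate 2 alone. At this depth 100 members had a mean of at least 100 counts and 3 had fewer than 10: 1700026F02Rik, Gm31294 and Gm35558. All members together took 3.10% and 3.01% of the mouse gene counts of replicates 1 and 2. Of that, Gm26917 and Gm42418 took 86.4% and 86.6%, and the other 169 members together held 0.422% and 0.405% of gene counts.

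**Figure D1:**
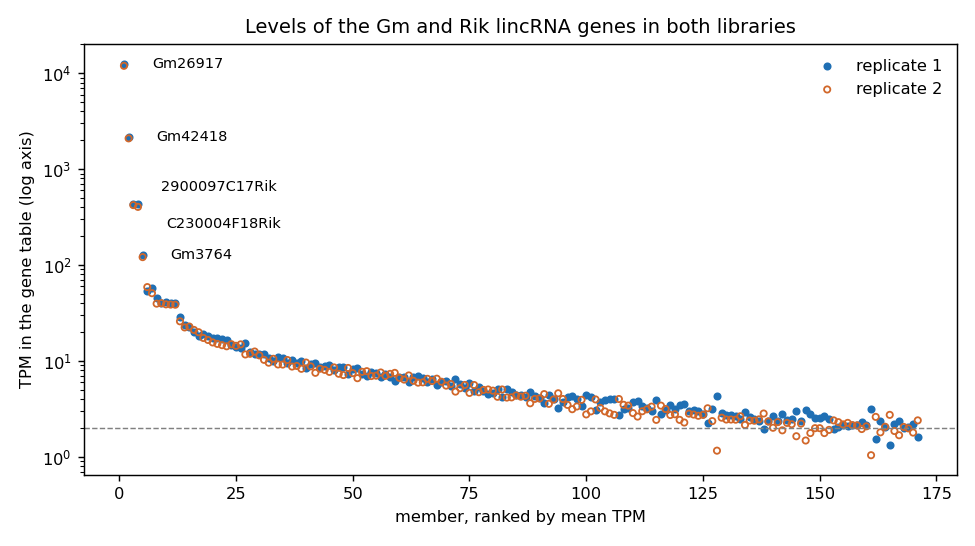
TPM in the gene table (log axis) for all 171 members, ranked by mean TPM, with filled points for replicate 1, open points for replicate 2 and a dashed line at 2 TPM. The 5 named genes stand above 100 TPM, and the points of both libraries separate visibly only towards the low end.

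Gm26917 (ENSMUSG00000097971.3) was the highest member, at 12621 and 11957 TPM (mean 12289 ± 470, SD, n = 2). Gm42418 (ENSMUSG00000098178.1) followed at 2170 and 2094 TPM (mean 2132 ± 53.7, SD, n = 2). Both are neighbours on the plus strand of chromosome 17 in the mm10 build: Gm26917 at chr17:39843013-39846341 with up to 2 exons, and Gm42418 at chr17:39846958-39848788 with 1 exon. Gm42418 overlaps ribosomal RNA entries in the annotations, and Gm26917 ends just before them. RefSeq places the pseudogene Rn18s-rs5, a copy of the small-subunit ribosomal RNA gene, at chr17:39846354-39848202, over 68.0% of Gm42418, and GENCODE has the ribosomal RNA entry CT010467.1 on the minus strand at chr17:39846353-39848827. CT010467.1 held 37 and 59 counts, against 77284 and 78223 for Gm42418 on the other strand. A stretch of 120 bases of each is shown, since these entries dominate every sum over the members (mm10, plus strand, chr17:39843513-39843632 and chr17:39847458-39847577).
Gm26917: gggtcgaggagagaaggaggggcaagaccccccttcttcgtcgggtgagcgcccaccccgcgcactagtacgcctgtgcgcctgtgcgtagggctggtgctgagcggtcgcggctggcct
Gm42418: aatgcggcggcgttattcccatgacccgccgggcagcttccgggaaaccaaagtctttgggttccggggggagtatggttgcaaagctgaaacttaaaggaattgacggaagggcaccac
The labels name a spike-in profile for libraries reduced in ribosomal RNA. How much ribosomal RNA remained was not tested.

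The gene 2900097C17Rik (ENSMUSG00000102869.2, chr2:156388065-156392979, minus strand, 1 exon) is Norad, a cytoplasmic RNA that binds Pumilio proteins, which themselves repress messenger RNAs. It stood at 435 and 422 TPM (mean 428 ± 9.07, SD, n = 2), with 41841 and 41560 counts, and ranked just below that pair. Gm7292 (chr6:117716342-117718868, plus strand, 1 exon) stood at 58.2 and 50.9 TPM. Of its 31-base words, 85.9% also occur in Norad, and 43.9% of those of Norad occur in Gm7292. The Pumilio recognition element, TGTANATA, was searched on the sense strand of each member's leading transcript. Norad held 11 matches in 4915 bases and Gm7292 held 9 in 2527 bases. The other 170 leading transcripts, Gm7292 included, held 42 matches, or 0.132 per 1000 bases. Of these 42, Gm7292 alone held 9, at 3.56 per 1000 bases, which raises that rate. The rate was 0.110 over all annotated lincRNA transcripts of other genes and 0.105 over all protein-coding transcripts. Of the 11 Norad matches, 9 lay where the copy could be aligned, and all 9 were kept there. Windows of 60 bases around 3 of these places are shown for both genes, 5′ to 3′ on the transcript, with the Pumilio element in capitals. They come from chr2:156391611-156391670, chr2:156391424-156391483 and chr2:156390505-156390564 for Norad, and from chr6:117717628-117717687, chr6:117717811-117717870 and chr6:117718731-117718790 for Gm7292.
Norad, first window: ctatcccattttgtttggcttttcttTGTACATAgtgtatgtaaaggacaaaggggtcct
Gm7292, first window: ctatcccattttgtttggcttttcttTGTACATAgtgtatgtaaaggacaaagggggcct
Norad, next window: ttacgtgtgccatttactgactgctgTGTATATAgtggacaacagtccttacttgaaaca
Gm7292, next window: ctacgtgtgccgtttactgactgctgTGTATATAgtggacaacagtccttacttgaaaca
Norad, last window: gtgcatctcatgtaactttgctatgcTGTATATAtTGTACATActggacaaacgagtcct
Gm7292, last window: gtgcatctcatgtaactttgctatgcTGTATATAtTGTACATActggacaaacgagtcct
Of 60 bases, 59 match in the first window, 58 in the next and 60 in the last, where 2 elements lie side by side. The 60 bases of the last window alone therefore cannot tell the genes apart. Whether reads that reach past the window can was not tested. The division of reads that match both Gm7292 and Norad rests on the authors' model. A match is a description of the letters and not a measured binding site.

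The fourth member, C230004F18Rik (ENSMUSG00000071753.12, chrX:61116378-61292484, plus strand), stood at 431 and 404 TPM (mean 418 ± 19.0, SD, n = 2). RefSeq names it Cdr1os. It has up to 10 exons and is transcribed opposite Cdr1, whose antisense strand is known as the source of the brain circular RNA Cdr1as. Cdr1 itself was listed at 0 counts in both libraries. The circular form was not analysed here. Gm3764 was next at 129 and 121 TPM, and belongs with the microRNA hosts below. Gm48623 (chr13:54301959-54312797, plus strand) stood at 53.9 and 58.9 TPM, and 1500004A13Rik (chr3:88782943-88832547, minus strand) at 40.3 and 40.0 TPM. Gm10419 (chr5:108367769-108378239, plus strand) stood at 41.4 and 38.9 TPM, and 3110039I08Rik, another microRNA host, at 45.1 and 39.6 TPM. Among the 10 highest, Gm48623 alone had the higher TPM in replicate 2.

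A set of members are microRNA host genes. A microRNA gene lay wholly within 17 of 171 members (9.94%) on the same strand, beside 16 of the 56 other lincRNA genes that reach 2 TPM (28.6%) and 46 of 5831 lincRNA genes under that level (0.789%). Overlap in at least 1 base was found for 20 members. A microRNA is cut from a hairpin in the host transcript, and bases 2 to 8 of the mature strand, its seed, pair with target messenger RNAs. Mature sequences from RefSeq (GRCm38.p6) were matched by symbol and chromosome for 31 microRNA genes of 16 of the 20 members. Of 40 overlaps of a microRNA gene with a member, 14 were wholly in an exon, 5 reached an exon in part and 21 had no base in one. In 38 the microRNA gene was listed at 0 TPM in both libraries. The other 2 were both Gm24155, at 26.5 and 12.7 TPM, which lies in Gm26871 and, with 61 of its 110 bases, in Gm9916. The levels below are therefore those of the host genes and say nothing of the mature microRNAs.

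The sequences below show which families the hosts carry, 5′ to 3′, with the seed in capitals. Gm3764, with Mir9-1 in an intron, stood at 129 and 121 TPM, and C130071C03Rik, with Mir9-2 in an exon, at 28.9 and 25.9 TPM. Both give the same mature miR-9, a microRNA of neural progenitors and neurons.
miR-9-5p: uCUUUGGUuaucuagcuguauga
miR-9-3p: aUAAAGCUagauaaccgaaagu
The long host 3110039I08Rik (chr9:41327077-41716994, plus strand) carries Mir100, Mirlet7a-2 and Mir125b-1 in introns. For Mirlet7a-2 only the 3p strand was matched, so no 5p strand is listed under that gene.
miR-100-5p: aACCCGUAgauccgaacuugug
miR-125b-5p: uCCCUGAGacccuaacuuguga
let-7a-2-3p: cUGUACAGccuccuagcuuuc
A330023F24Rik, with Mir29b-2 and Mir29c in exons, stood at 40.0 and 38.7 TPM. The 3p strands of both share the seed of the miR-29 family, known for its high level in mature neurons. Gm27019, at 3.99 and 2.74 TPM, overlaps the hairpin of Mir29b-1 by 2 bases only, and both mature strands lie outside it.
miR-29b-3p: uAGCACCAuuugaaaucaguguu
miR-29c-3p: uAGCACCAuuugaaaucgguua
Gm26871 holds Mir137, a microRNA of synaptic function, in an exon and stood at 23.8 and 22.4 TPM.
miR-137-3p: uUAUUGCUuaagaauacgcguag
Lower hosts carry members of further families. 6720427I07Rik, with Mirlet7a-1, Mirlet7d and Mirlet7f-1, stood at 3.06 and 2.76 TPM. Gm4258, with Mir181a-1 and Mir181b-1, stood at 3.93 and 2.98 TPM. E130102H24Rik, with Mir101a, stood at 4.91 and 4.99 TPM, and 4833445I07Rik, with Mir191 and Mir425, at 3.85 and 2.63 TPM. Within the let-7 set and within the miR-181 pair the mature 5p strands share 1 seed.
let-7a-5p: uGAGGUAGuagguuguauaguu
let-7d-5p: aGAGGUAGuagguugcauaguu
let-7f-5p: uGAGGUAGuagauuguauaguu
miR-181a-5p: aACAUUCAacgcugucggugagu
miR-181b-5p: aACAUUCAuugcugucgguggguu
miR-101a-3p: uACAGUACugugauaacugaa
miR-191-5p: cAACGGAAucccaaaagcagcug
miR-425-5p: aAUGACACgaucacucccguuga
A330076H08Rik (9.56 and 7.52 TPM) and A230057D06Rik (8.23 and 7.47 TPM) lie next to each other on the minus strand of chromosome 7, at chr7:61930137-61982358 and chr7:61704519-61928690, and carry the miR-344 cluster. Across both hosts, 5 mature 5p strands share the seed GUCAGGC, and the 3p strands fall under several seeds, of which 3 are shown.
miR-344-5p: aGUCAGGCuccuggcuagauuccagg
miR-344b-5p: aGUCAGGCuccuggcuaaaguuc
miR-344-3p: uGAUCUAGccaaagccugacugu
miR-344d-3p: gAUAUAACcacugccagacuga
miR-344h-3p: gGUAUAACcaaagcccgacugu
Further hosts were 5330434G04Rik with Mir325 (14.5 and 15.0 TPM), Gm6145 with Mir6390 (14.03 and 14.38 TPM), and 2900076A07Rik with Mir1839 (8.13 and 8.56 TPM). Gm27032 (16.4 and 14.2 TPM) overlaps the hairpin of Mir124a-3 by 3 bases only. Small nucleolar RNAs, guides of RNA modification, or their Cajal body relatives lay in 5 members. Among them 1110038B12Rik, with Snord52 in an exon, stood at 9.89 and 10.5 TPM.

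Between the libraries 1 member stood apart. An exact two-sided binomial test on counts scaled by edgeR's TMM factors was run for 18270 genes with a mean of at least 10 counts, 168 members among them, with Benjamini-Hochberg adjustment over all of them. Apart here means at least 1.5-fold different and an adjusted p below 0.05. The test compares 2 libraries and covers counting error only. Under that rule 1 of 168 members (0.595%) was apart, beside 1.89% of all genes tested. It was Gm32391 (chr1:164462442-164463989, plus strand, up to 3 exons), whose start lies 4087 bases from that of Atp1b1, on the opposite strand. Gm32391 had 39 counts in replicate 1 and 11 in replicate 2, or 4.30 and 1.16 TPM. It was 3.53-fold higher in replicate 1 (95% exact interval 1.83 to 7.89, edgeR-scaled exact binomial test, adjusted p = 0.000993). In the second transcript table it stood at 8.99 and 2.55 TPM, in the same order. Gm32391 was a member only through replicate 1, the library in which it was high, so this call supports nothing about the members. Without a fold minimum 9 members (5.36%) were under an adjusted p of 0.05, beside 11.4% of all genes. At an unadjusted p under 0.05 there were 25 members (14.9%), beside 21.8%.

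The 8 members added when the fold minimum was dropped were all higher in replicate 1 under TMM scaling, by small amounts. For Gm26917 the fold was 1.020 (95% interval 1.017 to 1.024), for Gm42418 1.016 (1.006 to 1.026), for Norad 1.035 (1.021 to 1.050) and for C230004F18Rik 1.031 (1.014 to 1.048). With libraries scaled to the ERCC spike-in totals the direction of Gm26917 and Gm42418 turned (log2 ratio of replicate 2 over replicate 1 0.0093 and 0.015). 3110039I08Rik was 1.18-fold higher (1.10 to 1.25), Gm7292 1.13-fold (1.06 to 1.20), 4921539H07Rik 1.34-fold (1.13 to 1.59) and 1810026B05Rik 1.19-fold (1.05 to 1.35). 5 other members were past 1.5-fold without passing the test. Gm42031, Gm17586 and Gm20627 had the higher value in replicate 2, with 59.1 and 92.4, 45 and 70, and 20 and 37 counts. Gm34466 (26 and 13 counts) and 5033430I15Rik (41 and 27 counts) had it in replicate 1. Gm42031 (1.61 and 2.40 TPM), Gm20627 (1.55 and 2.61) and Gm34466 (3.11 and 1.48) were members only through the library in which they were high. Their folds therefore support nothing about the members.

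Scaled counts were lower in replicate 2 for 108 of 168 members (64.3%), beside 50.2% of all genes tested, and the median log2 ratio of replicate 2 over replicate 1 was -0.06 for members and -0.001 for all genes. With ERCC totals the counts were lower for 97 members (57.7%), beside 40.7% of all genes, whose median then moved by 0.04. TPM was higher in replicate 1 for 116 of 171 members (67.8%), beside 57.1% of other genes at 2 TPM or more. Of the 171, 16 were under 2 TPM in replicate 2 alone and 6 in replicate 1 alone. These entered only through the library in which they were higher, so the direction counts are not independent of the rule. Choroid plexus markers, all 4 of them, and dentate granule markers, all 3, were higher in replicate 2. Those of the hippocampal field CA1 were all lower in replicate 2: Wfs1 (73.4 and 61.95 TPM), Mpped1 (77.28 and 67.09) and Fibcd1 (49.88 and 41.67). The 2 meninges markers differed in direction (Dcn at 23.9 and 14.2 TPM, Ptgds at 179.1 and 316.5 TPM). The part of these cells in the result was not tested. The relative spread followed the count. The median coefficient of variation was 7.73% for members and 5.12% for other genes. Among genes with 100 to 500 counts it was 7.37% for 70 members and 7.25% for 4295 other genes.

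**Figure D2:**
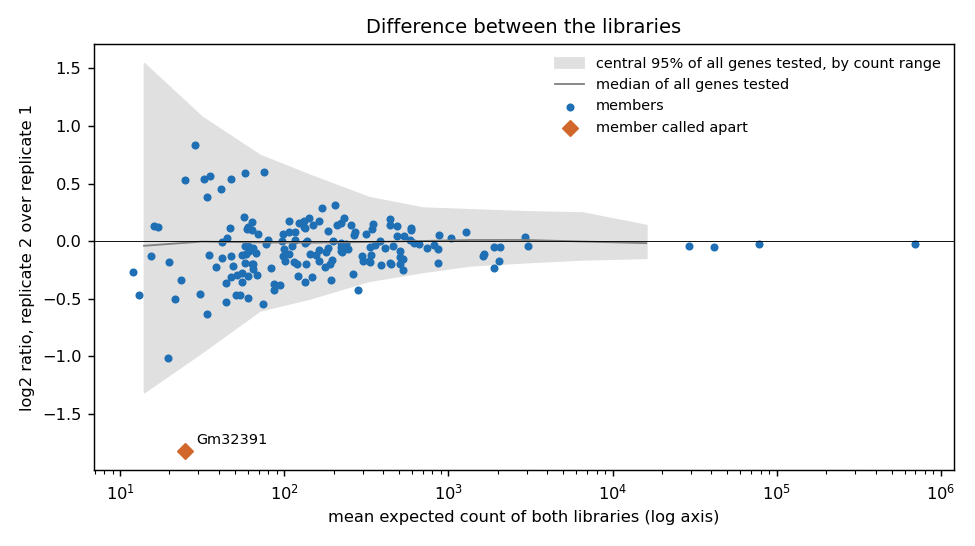
The log2 ratio of replicate 2 over replicate 1 against the mean expected count (log axis) for the 168 members tested. Grey marks the central 95% of all genes tested by count range; the diamond is Gm32391, which lies below it, and in all 3 of the 168 members (1.79%) lie outside their range.

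All 171 matched the GENCODE M21 annotation of mm10. Their median span was 11780 bases and their median longest transcript 2046 bases, against 991 for other lincRNA genes and 3547.5 for protein-coding genes at 2 TPM or more. Single-exon genes made up 28 of 171 (16.4%), beside 4.93% of other lincRNA genes and 13.1% of the 967 of them between 0.1 and 2 TPM. The nearest protein-coding gene was a median of 5405 bases away, against 43470 for other lincRNA genes and 7364 for those 967. For 32 members (18.7%) the start lay within 1000 bases of a protein-coding start on the opposite strand, called head to head here. The share was 5.50% over other lincRNA genes, and 18.1% over the 967, nearly that of the members. In 25 of the 32 pairs the gene bodies were apart, with transcription running outward, and in 7 they overlapped. The starts were 48 to 917 bases apart, with a median of 182. A further 20 members (11.7%) began within 5000 bases after the end of a coding gene on the same strand, beside 2.97% of other lincRNA genes and 7.76% of the 967.

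The coding partner had the higher mean TPM in 30 of 32 head-to-head pairs, with medians of 32.3 TPM for the coding genes and 3.39 TPM for the members. 4930570G19Rik stood at 10.9 and 9.59 TPM, beside 58.0 and 55.0 for Negr1, a neuronal adhesion molecule that starts 48 bases away. Gm15912 stood at 4.45 and 2.77 TPM beside 111 and 107 for Tppp, a tubulin-binding protein of oligodendrocytes. Gm44257 stood at 5.78 and 5.20 TPM beside 167 and 161 for Cacng8, an auxiliary subunit of AMPA receptors. 5031425E22Rik stood at 13.5 and 14.9 TPM beside 35.5 and 36.5 for Kmt2e, a chromatin regulator. A330008L17Rik stood at 3.71 and 4.01 TPM beside 34.8 and 35.2 for the cadherin Cdh8. C030037D09Rik stood at 4.38 and 4.37 TPM beside 48.8 and 44.8 for Msi2, an RNA-binding protein. The exceptions were Gm10419 (41.4 and 38.9 TPM against 23.5 and 22.5 for Gm42517) and M5C1000I18Rik (12.4 and 11.9 TPM against 3.29 and 3.21 for C2cd4b). In both exceptions the gene bodies overlap. The pairs not named with values ranged from 2.03 and 1.98 TPM for 2210008F06Rik to 6.77 and 6.21 TPM for 4632404H12Rik. Across the 32 pairs the levels did not follow each other (Pearson's r on log2 TPM -0.04, Spearman's rho -0.02, across genes, which are not independent replicates). The coding gene was also the higher one for 17 of the 20 members that begin after a coding gene on the same strand. Over all 171 members and their nearest coding genes it was higher in 112, with Pearson's r of -0.25 and Spearman's rho of -0.19.

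**Figure D3:**
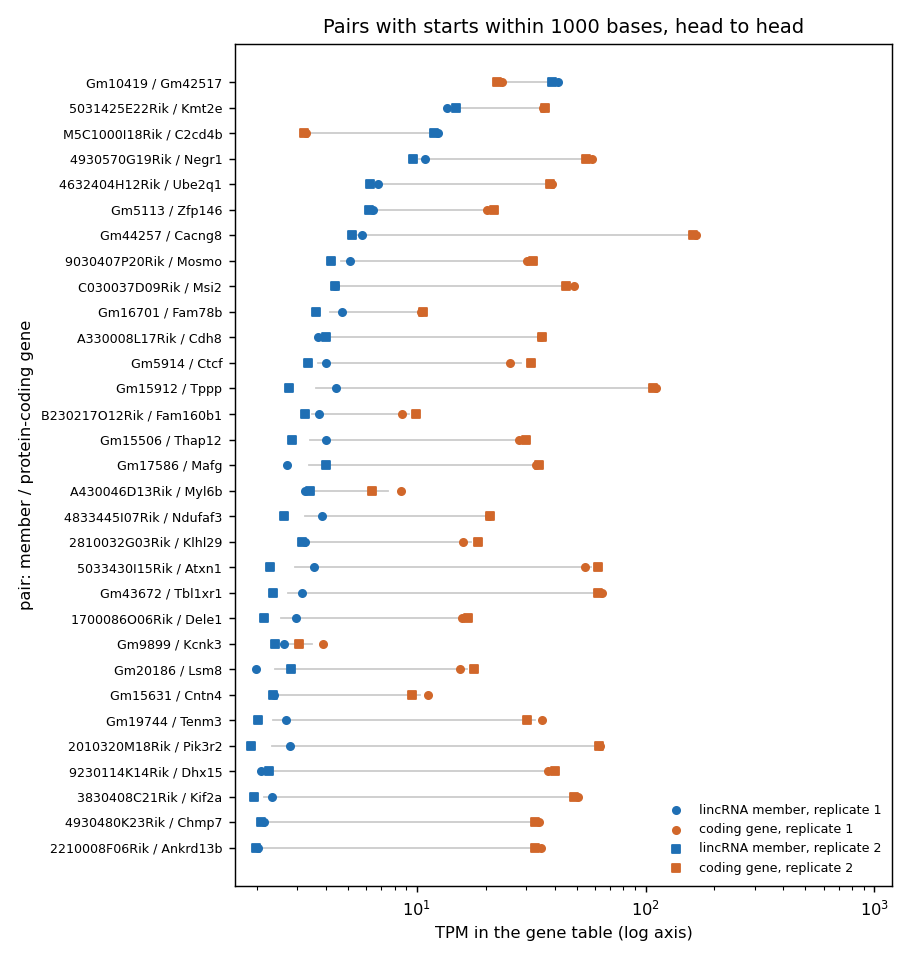
TPM in the gene table (log axis) of 31 of the 32 members (blue) and their head-to-head protein-coding partners (orange), circles for replicate 1 and squares for replicate 2, with a grey line joining the means of a pair. The coding gene lies to the right in 29 of the 31 pairs drawn.

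RefSeq promoters, each running from 250 bases before to 50 after a start (300 bases), were found for 91 members. For 73 of these the RefSeq start lay within 1000 bases of the GENCODE start. A window was called CpG-rich at a GC content of at least 50% and an observed over expected CpG ratio of at least 0.6. All 17 head-to-head members with a window were CpG-rich, with a median GC content of 74.7%, against 17 of 56 other members (30.4%, median GC content 51.7%). Among all 32851 RefSeq promoters the share was 33.5%, among those of long noncoding RNAs 12.04% and among those of protein-coding genes 45.2%. A head-to-head window can hold the coding gene's start as well. The 3 promoters shown belong to the 3 highest members whose RefSeq and GENCODE starts differ by at most 50 bases and whose coding start lies within 200 bases. The member's RefSeq start is base 251, and the coding gene on the other strand starts at base 203 (Negr1), 126 (Zfp146) and 121 (Msi2). Capitals mark matches on either strand to the motifs searched. The windows are chr3:156561697-156561996 (minus strand), chr7:30169625-30169924 (plus) and chr11:88718393-88718692 (plus), from RefSeq (GRCm38.p6).
4930570G19Rik: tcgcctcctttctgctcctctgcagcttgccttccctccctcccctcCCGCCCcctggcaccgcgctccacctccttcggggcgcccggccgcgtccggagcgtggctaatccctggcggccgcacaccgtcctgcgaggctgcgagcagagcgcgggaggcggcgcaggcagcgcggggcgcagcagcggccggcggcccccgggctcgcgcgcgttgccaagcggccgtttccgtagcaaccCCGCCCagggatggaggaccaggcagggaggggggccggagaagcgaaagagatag
Gm5113: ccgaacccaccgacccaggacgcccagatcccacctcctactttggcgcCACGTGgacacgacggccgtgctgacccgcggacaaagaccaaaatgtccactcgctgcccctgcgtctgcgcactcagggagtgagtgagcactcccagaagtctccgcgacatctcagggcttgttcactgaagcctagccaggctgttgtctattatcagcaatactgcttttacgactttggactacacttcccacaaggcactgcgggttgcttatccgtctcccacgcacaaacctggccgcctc
C030037D09Rik: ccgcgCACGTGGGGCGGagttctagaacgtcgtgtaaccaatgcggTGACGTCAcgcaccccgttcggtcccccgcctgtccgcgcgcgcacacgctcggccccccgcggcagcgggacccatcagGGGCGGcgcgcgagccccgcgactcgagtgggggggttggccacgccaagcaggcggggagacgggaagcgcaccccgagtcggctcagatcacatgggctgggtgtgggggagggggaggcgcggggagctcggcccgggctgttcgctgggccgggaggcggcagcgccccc
The motifs searched were the E-boxes CACGTG and CAGCTG, the GC box GGGCGG, the TATA box TATAAA, the cAMP response element TGACGTCA and the AP-1 element TGANTCA. In the first window the capitals are GC boxes read from the other strand. The last one holds an E-box beside a GC box, a cAMP response element and another GC box. Over the 73 member windows, GGGCGG occurred in 45.2% against 35.7% of all promoters, and CACGTG in 11.0% against 7.15%. In the 17 head-to-head windows the shares were 70.6% and 23.5%. In the other 56 they were 37.5% and 7.14%, near those of all promoters. GGGCGG occurred in 16.3% of long noncoding RNA promoters and 46.2% of protein-coding ones. TGACGTCA occurred in 3 windows (4.11%) against 1.79%, CAGCTG in 13.7% against 16.3%, TATAAA in 13.7% against 13.6% and TGANTCA in 6.85% against 7.81%. None of the 17 head-to-head windows held TATAAA, and 12 held GGGCGG. These are matches of letters, and no factor's binding was measured.

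106 members share at least 1 word of 31 bases with another gene, and a few share nearly all of their sequence. Of the 31-base words of all its transcripts, each member's share found on the same strand of another gene's transcripts was counted. It was 0 for 65 members, had a median of 0.820%, and reached 20% for 17 members. All 622 words of Gm49749 lie in Pcnx, whose last part it overlaps on the same strand of chromosome 12. Gm49749 stood at 18.3 and 19.9 TPM and Pcnx at 38.8 and 44.9 TPM. Gm10076 shares 82.2% of its words with Rpl41, a ribosomal protein gene, and stood at 17.5 and 15.6 TPM beside 598 and 596 for Rpl41. Gm49207 shares 83.1% with Ahsa1, a co-chaperone gene, and stood at 11.1 and 9.19 TPM beside 76.9 and 81.7. 6430590A07Rik shares 32.8% with Mfsd8, a lysosomal membrane protein gene, and 1810026B05Rik 29.9% with Chd2. The last pair is known: 1810026B05Rik is Chaserr, an RNA that lowers the expression of the chromatin remodeller gene Chd2 next to it. Chaserr stood at 15.4 and 11.7 TPM and Chd2 at 22.1 and 24.4 TPM.

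Gm27000 (chrX:88759471-88760312, minus strand, 1 exon) shares 96.2% of its words with Meg3, the maternally expressed RNA of the imprinted locus on chromosome 12. Its longest run found whole in a Meg3 transcript is 680 of its 842 bases. Gm27000 stood at 39.8 and 38.6 TPM, and Meg3 at 1223 and 1046 TPM. The posterior SD of its count in the gene table was 54.4 and 54.7 for counts of 608 and 618. The first 120 bases of the run are shown, as an example of a stretch that reads cannot assign (mm10, minus strand, chrX:88760031-88760150).
Gm27000: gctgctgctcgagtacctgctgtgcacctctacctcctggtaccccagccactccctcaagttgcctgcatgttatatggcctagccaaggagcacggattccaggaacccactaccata
Other members at or above 20% share words with zinc finger or repeated genes, or with each other. Gm42031 shares 60.9% with Gm43305, and Gm43305 shares 16.2% with Gm42031. Gm6712 and Gm5165 share most with the zinc finger gene Zfp97, and Gm46430 with Zfp825. 2410018L13Rik shares most with Gm49686, and Gm5784 with 2410018L13Rik. E430024I08Rik shares most with Gm46430, and Gm20186 with Gm12840. From the counts themselves 15 members were marked as sharing reads, since a count was not whole and its posterior SD was at least 1% of it. Of those 15, 11 are among the 17. The other 4 were 3110039M20Rik, 1700026F02Rik, Gm32618 and 1300002E11Rik, with 4.24 and 4.34, 3.88 and 2.43, 3.77 and 2.86, and 8.68 and 7.13 TPM. The levels of the 15 depend on how the authors' model divided the reads. For the 6 of the 17 that were not marked, the posterior SD was under 1% of the count, and for Gm20186 the counts were whole with an SD of 0.

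**Figure D4:**
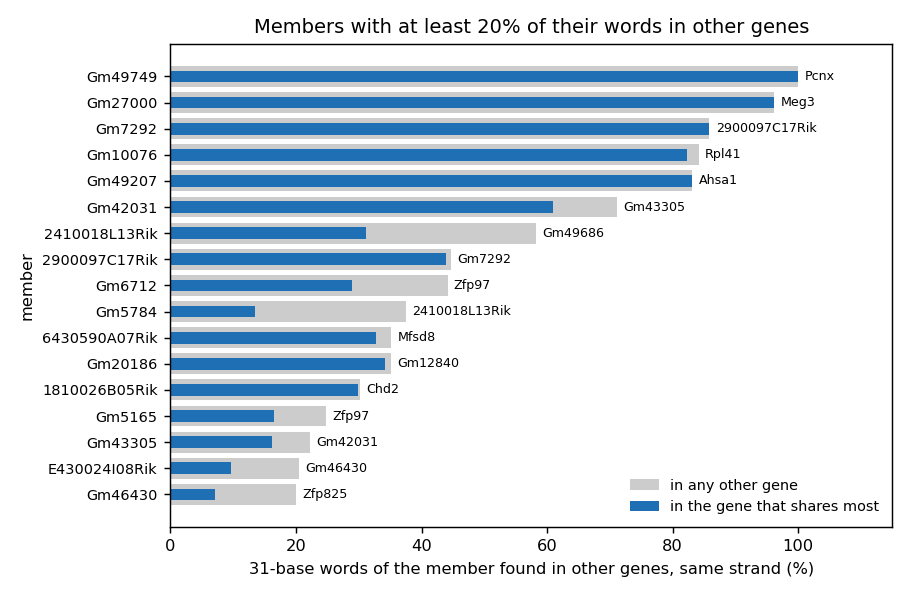
Share of the 31-base words (%) of the 17 members at or above 20% that occur on the same strand of any other gene (grey) and of the gene that shares most (blue), which is named at the bar. Gm49749, Gm27000, Gm7292, Gm10076 and Gm49207 share over 80% with 1 gene.

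The deposited data hold a second quantification of the same reads, a transcript table, which was summed by gene. Its TPM was higher than in the gene table, by a median of 0.82 log2 units for members and 0.74 for all 13362 genes compared (0.01 TPM added). Entries of the class misc_RNA took 36.8% and 37.9% of TPM in the gene table and 0.0261% and 0.0221% in the second, and their part in the shift was not tested. Relative to the median of all genes, 20 of 171 members (11.7%) were more than 2-fold away, beside 5.31% of all genes and 1.43% of protein-coding genes. Of these 20, 10 were among the 24 members under 500 bases of effective length, and 10 among the 147 longer ones. Across the 171 members the tables gave Pearson's r of 0.905 on the log2 scale and Spearman's rho of 0.831, as a description of the same reads.

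The 4 lowest members in this comparison, Gm10076, Gm49207, Gm31294 and Gm35558, were listed at 0 in the second table in both libraries. In the gene table Gm31294 had 2 counts in each library and Gm35558 had 6 and 4, over lengths of 138 and 204 bases, so their TPM rests on a handful of reads. 1700026F02Rik followed, at 3.88 and 2.43 TPM in the gene table and 1.21 and 1.14 in the second. At the other end Gm20186 went from 1.97 and 2.83 TPM to 17.98 and 30.55. Gm43305 (chr14:54292443-54297456, minus strand) went from 19.1 and 17.4 TPM to 163 and 166 TPM, and its counts from 1678 and 1595 to 11246 and 11650. Gm42031, which shares sequence with it, went from 1.61 and 2.40 TPM to 16.8 and 16.6. A230006K03Rik went from 3.46 and 2.73 TPM to 22.78 and 20.03, and Gm8066 from 6.17 and 5.53 to 37.6 and 27.5. Gm10076, Gm49207, 1700026F02Rik and Gm42031 are among the members marked as sharing reads, and the other 6 are not.

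**Figure D5:**
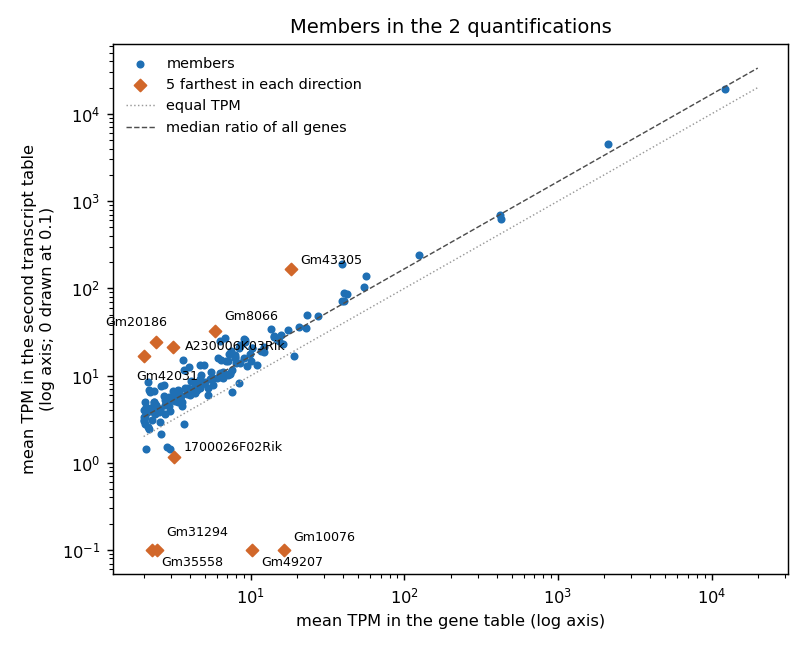
Mean TPM of each member in the second transcript table against the gene table (both log axes, values of 0 drawn at 0.1), with the median ratio of all genes dashed and equal values dotted. Orange diamonds are the 5 members farthest from the rest in each direction, of which 4 were listed at 0 in the second table.

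More than 1 transcript was annotated for 110 members, and 109 of these were listed above 0 in both transcript tables. The same transcript led, by its share of TPM within the gene, in both tables and both libraries for 64 of 109. Within 1 table the libraries gave the same leader for 90 members in the first and 92 in the second. The tables named different leaders in both libraries for 18 members, 15 of which have at least 3 transcripts. For 2900079G21Rik, 1 transcript took 87.9% and 96.4% in the first table and another took 99.5% in each library in the second. For 1700026F02Rik the leader took 100% in both libraries in each table, but it was not the same transcript. For Gm3764, with 11 transcripts, the leaders took 23.4% and 23.7% in the first table and 17.0% and 15.8% in the second, so none dominated. The remaining members of this set were Gm43597, 1110038B12Rik, Gm40841, Gm1976, 4930578M01Rik, Gm2762, 6530403H02Rik, D630033O11Rik, Gm31816, Gm19744, Gm43154 and 2410018L13Rik.

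Long noncoding RNAs with established names gave a reference for these levels and differences. Of 17 listed, 16 could be matched and tested. By the exact binomial test 0 were apart between the libraries, beside 1.89% of all genes tested. Without a fold minimum 6 (37.5%) were under an adjusted p of 0.05, beside 11.4% of all genes. At an unadjusted p under 0.05 there were 7 (43.75%), beside 21.8%. Malat1, a nuclear speckle RNA, stood at 6122 and 6121 TPM, Meg3 at 1223 and 1046 and Rian at 518 and 459. Gas5, a host of small nucleolar RNAs, stood at 108 and 99.0 TPM, near Gm3764. Neat1, the scaffold of paraspeckles, stood at 20.5 and 20.8 TPM.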

How the data were processed

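Total RNA libraries of 1 group, 2 mice, were used. For each gene the authors deposited TPM, an expected count and the posterior standard deviation of that count (gene table). They also deposited a first transcript table with the same values and a percent, the part of its gene that a transcript makes up, and a second transcript table with an estimated count and TPM per transcript. The deposited README says that the first tables came from a transcriptome alignment and the second from a FASTQ file, with mm10 and GENCODE M21. Which programs were run, and with which strand setting, is not given in the sources used here. Values of antisense partners are therefore uncertain.

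Members and lists were chosen with earlier results of these data known. Named are the 10 highest members, those apart between libraries, the 5 farthest apart between tables in each direction, those that share reads or at least 20% of 31-base words, head-to-head members, 3 genes on each side of the threshold, members of at least 3 transcripts whose leader differs between tables, and members of known role.

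Counts were rounded, scaled with edgeR 4.0.16 (TMM) in R 4.3.3 and compared by an exact binomial test (scipy 1.17.1). The test was tried on simulated counts that held counting error only, so that trial says nothing of other spread between the libraries. To scaled counts 0.5 was added before folds were taken. Nothing in the labels says that the animals differ in more than their replicate number and biosample, so the spread may be technical. Intervals cover counting error only, and no use of molecular identifiers is recorded in the labels. Alternatives tried were other scalings (DESeq2 1.42.0 size factors, library and ERCC totals), count filters, the second table, TPM thresholds, added TPM values, word lengths and start distances. Of the head-to-head pairs, 1 is counted but not reported by name or drawn.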

Additional observations from a re-analysis of the deposited data

How the results depend on the processing

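Of 30 alternatives for 7 results, 6 moved a count by over 1.5 times and 1 turned a direction. The number of members was 297 at a threshold of 1 TPM, 77 at 5 TPM and 507 with TPM of the second table, which kept 163 of the 171; with either library alone it ranged from 162 to 182. Members apart between the libraries numbered 0 of 100 with a mean count of at least 100, beside 113 of 12541 genes (0.901%). Without a fold minimum there were 9 of 168, beside 11.4% of all genes. With counts of the second table there were 2 of 160, as Gm20186 was added, beside 317 of about 20290 genes. Gm20186 was a member only through replicate 2 (1.97 and 2.83 TPM). Gm32391 has 25 counts on average, so the stricter filter removes it; with every scaling tried it was called, with log2 ratios from -1.83 to -1.78. The median log2 ratio of the tables, members less all genes, was 0.08 as reported, 0.05 without replicate 2, 0.10 without replicate 1 and -0.0062 with 1 TPM added instead of 0.01; the cause was not tested. Leaving 1 library out ends the test between libraries. No paired analysis was possible because the labels give 1 group. Depth limits the 33 members under 50 counts most.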

Other observations

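An exon of a gene on the opposite strand overlapped 38 members, and for 19 of them that gene stood at 1 TPM or more. Gm5914, which has 66.8% of its 31-base words on the opposite strand of Ctcf, a chromatin architectural protein, stood at 4.01 and 3.35 TPM beside 25.5 and 31.7 for Ctcf. Gm20208, with 30.4% of its words opposite Myt1l, a neuronal transcription factor, stood at 1.33 and 2.74 TPM beside 96.9 and 90.3. C030014I23Rik and Gm47204, both members, overlap each other on opposite strands (98.5% of the words of Gm47204), at 2.37 and 2.22 TPM and at 4.80 and 4.17 TPM.

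A poly(A) signal, AATAAA or ATTAAA on the sense strand, lay in the last 50 bases of the leading transcript of 94 of 171 members (55.0%). The share was 39.3% over the lincRNA transcripts of other genes and 50.2% over protein-coding transcripts. Those sets count every annotated transcript at any level, while members count only their leading one, so the units differ. The median GC content of the leading transcripts was 47.1%, beside 46.2% and 50.4% in those sets. Chromosome 7 held 21 members (12.3%, beside 5.59% of other lincRNA genes), chromosome 3 held 16 (9.36% beside 4.71%), and chromosomes 5 and 13 held 15 each (8.77%, beside 5.74% and 6.98%).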
